A study of Homo sapiens with 6 samples.

Results

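The genes described here are the subunits of NF-kB and the inhibitors that it induces against itself, measured by RNA-seq in KYSE450, an established cell line of human esophageal squamous cell carcinoma (ESCC). They were taken as the rows of the deposited expression table whose gene name is NFKB1, NFKB2, REL, RELA, RELB, NFKBIA, NFKBIE, NFKBIZ, TNFAIP3 or BIRC3. All 10 were found, each as a single row, among 27887 rows. The control group, mock, was 3 libraries of cells labelled wild type and infected with a mock virus. The other group, shHMGB2, was 3 libraries of cells infected with a virus carrying a short hairpin RNA against HMGB2 and labelled HMGB2 knockdown. What the mock virus carried, how many hairpins were used and when cells were harvested are not given in the sources used here. Within each group replicates 2 and 3 are labelled as repeat samples, so every p-value below rests on a spread among libraries that may be technical only. The series asks which genes regulate cholesterol metabolism, and HMGB2 is the gene it knocked down.

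NF-kB is a dimer of Rel family proteins that binds the kappaB DNA motif. In resting cells inhibitors of the IkB family hold it in the cytoplasm. Signals from cytokine and pattern recognition receptors activate the IkB kinases, the inhibitor is marked and degraded, and the dimer enters the nucleus. Among the genes it then switches on are its own inhibitors and several of its own subunits, which closes feedback loops. In squamous epithelium the pathway is known for driving chemokines and cytokines of the inflammatory response.

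The promoters of these genes are shown for their matches to the motif that the family binds. RefSeq promoter windows on GRCh38.p14, running from 250 bases before to 50 bases after a transcription start, were given for 8 of the 10 genes, NFKBIE and RELB being the others. They were searched on both strands for the kappaB consensus of 10 bases, GGGRNNYYCC (R a purine, N any base, Y a pyrimidine). Overlapping matches were merged to 1 site. Sequences that departed from this pattern at any base were not counted, so a window without a site may hold a looser match. Of the 8 genes, 7 had at least 1 site, RELA being the exception in both of its windows. Over all 27305 symbols with a window the share with a site was 13.3%, and over all 35116 windows of the same length it was 11.3%. The windows of 4 genes are given 5′ to 3′ along the gene's own strand, with the sites in capitals: BIRC3 and TNFAIP3, whose shHMGB2 libraries all lay above the mock libraries, REL, whose libraries varied most on the log2 scale, and NFKBIA, the classical feedback inhibitor.
BIRC3 (chr11:102317234-102317533, plus strand): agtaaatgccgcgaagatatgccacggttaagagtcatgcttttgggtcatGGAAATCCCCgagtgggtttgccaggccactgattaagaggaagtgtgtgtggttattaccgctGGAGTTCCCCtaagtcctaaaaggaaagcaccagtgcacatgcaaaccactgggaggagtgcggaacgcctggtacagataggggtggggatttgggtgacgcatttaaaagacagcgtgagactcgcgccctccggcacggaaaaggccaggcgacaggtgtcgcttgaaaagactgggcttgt
TNFAIP3 (chr6:137867009-137867308, plus strand): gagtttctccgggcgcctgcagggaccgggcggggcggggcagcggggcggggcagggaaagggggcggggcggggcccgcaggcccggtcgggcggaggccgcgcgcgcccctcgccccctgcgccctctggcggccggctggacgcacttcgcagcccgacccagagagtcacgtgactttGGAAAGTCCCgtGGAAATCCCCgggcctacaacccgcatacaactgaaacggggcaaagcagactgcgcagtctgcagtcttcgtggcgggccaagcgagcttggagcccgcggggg
REL (chr2:60881324-60881623, plus strand): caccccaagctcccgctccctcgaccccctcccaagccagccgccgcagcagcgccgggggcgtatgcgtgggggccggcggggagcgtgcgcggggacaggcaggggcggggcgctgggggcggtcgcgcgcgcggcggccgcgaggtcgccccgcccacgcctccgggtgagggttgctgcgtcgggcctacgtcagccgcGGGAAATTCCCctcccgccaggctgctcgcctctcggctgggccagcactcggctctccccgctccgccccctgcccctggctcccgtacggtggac
NFKBIA (chr14:35404700-35404999, minus strand): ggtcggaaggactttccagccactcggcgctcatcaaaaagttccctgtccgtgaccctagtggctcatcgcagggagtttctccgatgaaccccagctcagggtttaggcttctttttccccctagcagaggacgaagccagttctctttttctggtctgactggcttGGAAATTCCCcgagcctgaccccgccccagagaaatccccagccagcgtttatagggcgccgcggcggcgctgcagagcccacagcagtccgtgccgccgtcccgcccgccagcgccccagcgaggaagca

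BIRC3 and TNFAIP3 each held 2 separate sites on the minus strand. Those of TNFAIP3 lay close together, from base -67 to -58 and from base -55 to -46 relative to the start, and those of BIRC3 from base -199 to -190 and from base -135 to -126. REL had 1 site of overlapping matches on both strands from base -47 to -37, and NFKBIA had 1 from base -81 to -72. Any looser matches in the printed windows stay in lower case. For NFKB1, NFKB2 and NFKBIZ some sites are given with their flanks, since these genes have several windows. NFKB1 had a site in 1 of 2 windows, NFKB2 had 2 sites in each of 2 of its 3 windows, and NFKBIZ had 1 site in each of 2 windows. Sites not printed are those of NFKB2 from base -78 to -69 in 1 window and from base -176 to -167 in the other. For NFKBIZ the site from base -239 to -230 of its other window is not printed.
NFKB1 (chr4:102501295-102501334, plus strand): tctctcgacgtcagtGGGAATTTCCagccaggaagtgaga
NFKB2 (chr10:102394456-102394496, plus strand): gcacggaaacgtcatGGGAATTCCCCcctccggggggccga
NFKB2, another start (chr10:102395669-102395708, plus strand): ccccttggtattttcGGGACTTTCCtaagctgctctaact
NFKBIZ (chr3:101827752-101827791, plus strand): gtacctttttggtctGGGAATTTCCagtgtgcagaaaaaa

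The map of motif matches gives their distance from each start. A match is a description of the letters and was not tested as a binding site.

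**Figure D1:**
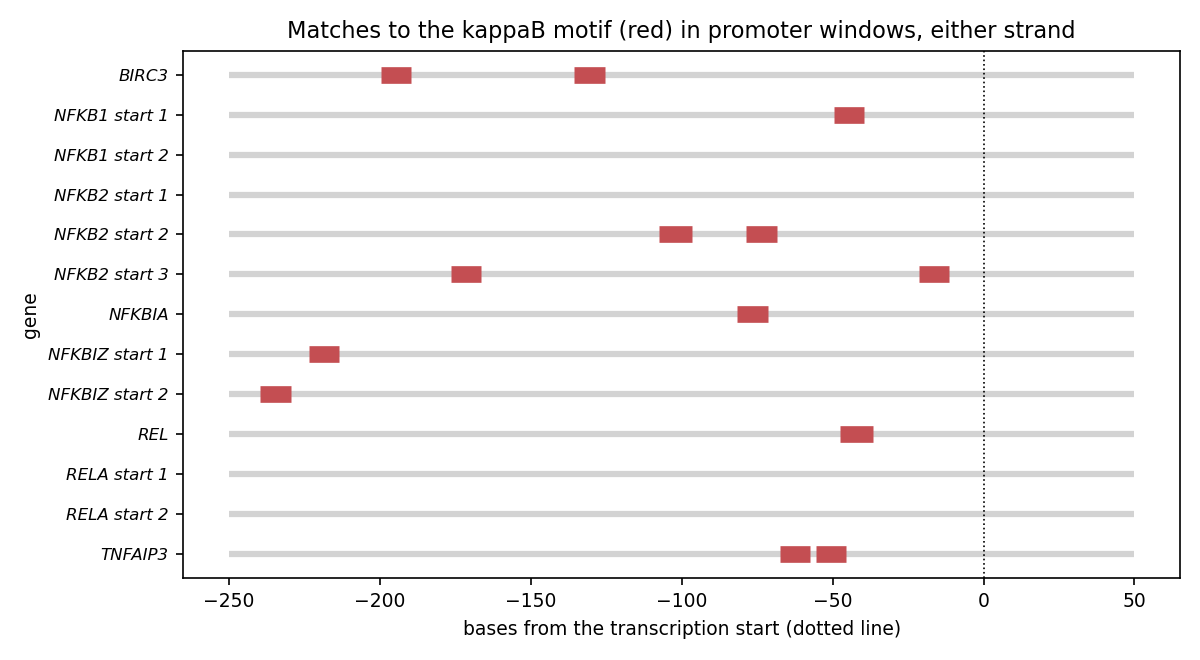
Promoter windows of the 8 genes with a RefSeq window (grey, 250 bases before to 50 after each transcription start, x axis in bases from the start), 1 line for each start, with matches to the kappaB consensus on either strand in red. Matches stand in 9 of 13 windows, and in neither window of RELA.

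Expression is given as FPKM, fragments scaled by transcript length and library size. The scaling did not remove every difference between libraries, as mock replicate 1 still deviated with transcript length (values below) and other scalings moved the split of genes called between shHMGB2 and mock from 442 higher and 463 lower to as far as 312 and 527. Summed FPKM ran from 740684 to 829437 per library and profiles correlated at r = 0.985 to 0.989 within groups and 0.978 to 0.987 between them (Pearson, log2(FPKM + 1), across the 13409 genes tested, which are not independent replicates). The knockdown was present in each labelled library, with HMGB2 at 115.76, 111.42 and 108.61 FPKM in mock and 22.10, 24.45 and 27.75 FPKM in shHMGB2 (log2 difference -2.14, limma adjusted p = 0.000113). All 8 squamous markers read, KRT5 and TP63 among them, passed the level filter of a mean of at least 1 FPKM. That filter, which 13409 of 27887 rows passed, does not by itself establish squamous identity. Of 8 leukocyte markers listed (5 of them in the table), 7 fibroblast and 5 endothelial markers, 1 each passed the filter, namely CD68, LUM and ERG. The defining markers PTPRC, COL1A1 and PECAM1 stayed at or below 0.03, 0.75 and 0.01 FPKM in every library. Summed over each list, leukocyte markers held 7.04 to 7.88 FPKM in mock and 4.64 to 5.14 in shHMGB2, nearly all of it CD68, fibroblast markers 2.91 to 3.70 and 3.99 to 4.41, and endothelial markers 1.88 to 2.58 and 2.39 to 2.80. Squamous markers summed to 6220 to 6325 FPKM in mock and 5494 to 6166 FPKM in shHMGB2. Of these, KRT14 fell from 135 to 92.4 FPKM and KRT6A from 2068 to 1418 FPKM, and SOX2 rose from 57.4 to 77.3 FPKM (limma adjusted p = 0.00532, 0.00557 and 0.0307). They were named after their values were seen, and the other 5 squamous markers did not pass the test.

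In the HMGB2 knockdown no message of the NF-kB core changed past the threshold. The threshold was an adjusted p of 0.05 in limma (a linear model fitted to log2(FPKM + 1) over all genes, Benjamini-Hochberg adjusted), and 0 of the 10 genes were called higher and 0 lower. Across all genes tested 6.75% passed, and at an unadjusted p under 0.05 the count was 4 of the 10 genes and 3745 of 13409 genes. The inhibitor NFKBIE had the smallest p and was lower in shHMGB2 at 76.3% of its mock mean, while TNFAIP3, BIRC3 and REL had positive differences and the other 6 genes had differences of at most 0.12 in size on the log2 scale. The median log2 difference, shHMGB2 minus mock, was -0.06 over the 10 genes and 0.04 over all genes tested. In bulk RNA a change in the number of cells of 1 kind cannot be told apart from a change in RNA per cell.

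**Figure D2:**
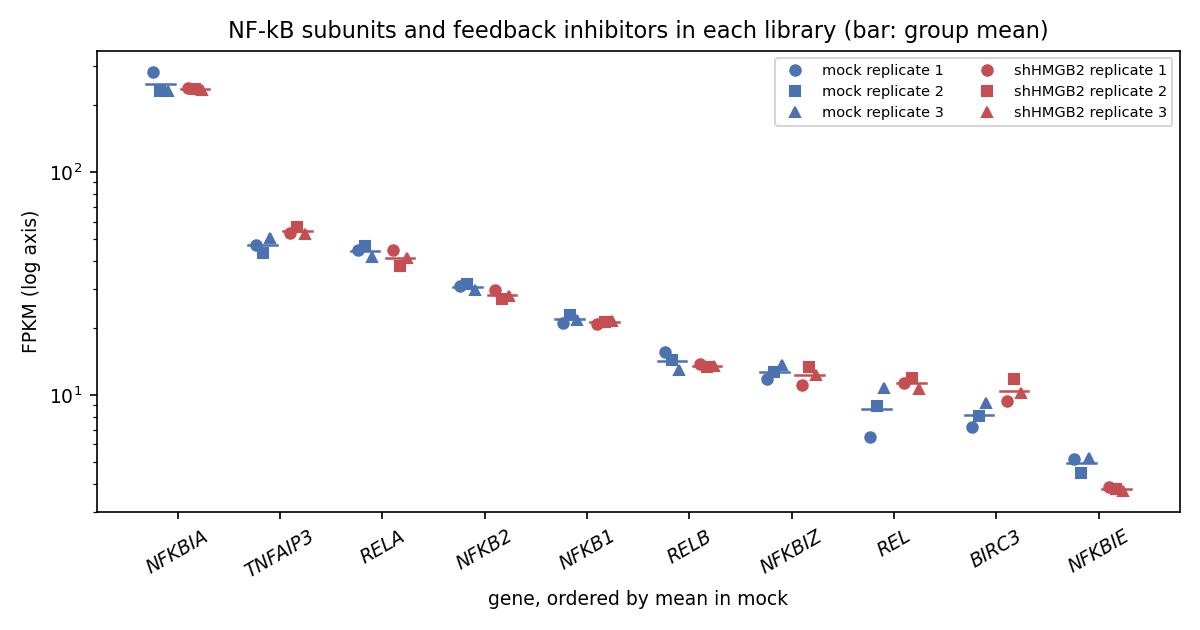
FPKM (log axis) of the 10 genes in each library, mock in blue and shHMGB2 in red, marker shape giving the replicate number and the bar the group mean. NFKBIA stands far above the others, at 230.73 to 281.83 FPKM, and NFKBIE lies lowest at 3.71 to 5.23 FPKM.

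The DNA-binding subunits were led by RELA, the main transactivating partner, on chromosome 11 at 65653601 to 65663857 (GRCh38, as all positions here). Its level was 44.57, 46.67 and 41.79 FPKM in mock and 44.68, 38.07 and 41.00 FPKM in shHMGB2. These groups overlapped, with means of 44.3 ± 2.45 and 41.3 ± 3.31 FPKM (SD, n = 3 each) and a log2 difference of -0.10 (95% interval -0.28 to 0.07, limma adjusted p = 0.401). NFKB1, on chromosome 4 at 102501359 to 102617302, encodes the precursor of RELA's usual DNA-binding partner. It stood at 21.10, 22.76 and 21.73 FPKM in mock and 20.85, 21.34 and 21.47 FPKM in shHMGB2. This was the narrowest estimate of the 10, a log2 difference of -0.04 (95% interval -0.17 to 0.09, limma adjusted p = 0.664).

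NFKB2 and RELB form the dimer of the alternative pathway, in which the NFKB2 precursor is processed to its active form. NFKB2, on chromosome 10 at 102394110 to 102402529, had 30.69, 31.45 and 29.73 FPKM in mock and 29.50, 27.01 and 27.68 FPKM in shHMGB2. All shHMGB2 libraries lay below all mock libraries, though by as little as 29.50 against 29.73 FPKM, and the log2 difference of -0.12 did not pass (95% interval -0.26 to 0.01, limma adjusted p = 0.218). RELB, on chromosome 19 at 45001464 to 45038192, had 15.53, 14.33 and 12.92 FPKM in mock against 13.72, 13.37 and 13.45 FPKM in shHMGB2. Its shHMGB2 libraries all fell inside the mock range (log2 difference -0.07, 95% interval -0.24 to 0.11, limma adjusted p = 0.578).

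REL, the subunit best known from lymphocytes, had the widest spread of the 10 genes over the 6 libraries on the log2 scale, though not in FPKM. It lies on chromosome 2 at 60881574 to 60931612. The mock libraries had 6.46, 8.89 and 10.70 FPKM and the shHMGB2 libraries 11.36, 11.89 and 10.64 FPKM. Mock replicate 1 was the low value, mock replicate 3 reached into the shHMGB2 range, and the groups overlapped. The means were 8.68 ± 2.13 and 11.3 ± 0.627 FPKM (SD, n = 3 each), with a log2 difference of 0.37 (95% interval 0.01 to 0.73, limma adjusted p = 0.169). Without mock replicate 1 the difference was 0.19 (limma adjusted p = 0.246).

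Within each library RELA supplied 34.1% to 37.7% of the summed FPKM of the 5 subunits, NFKB2 24.2% to 25.9%, NFKB1 17.4% to 19.1% and RELB 11.1% to 13.1%. REL was the only subunit whose share differed between all mock and all shHMGB2 libraries upward, with 5.46%, 7.16% and 9.16% in mock and 9.46%, 10.6% and 9.31% in shHMGB2. The gap was as small as 9.16% against 9.31%, and the FPKM of REL overlapped between the groups. Its lowest share was in mock replicate 1, which stood apart by transcript length (values below). The 5 shares of a library depend on each other. In FPKM 35.6% of all genes tested did not overlap between the groups. NFKB2's share was below all mock values in shHMGB2, at 24.6%, 24.2% and 24.2% against 25.9%, 25.3% and 25.4%. The summed level of the 5 subunits was 118.4, 124.1 and 116.9 FPKM in mock and 120.1, 111.7 and 114.2 FPKM in shHMGB2, and the groups overlapped.

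NFKBIA encodes the IkB protein that leaves and returns fastest in the canonical response, and it was the most abundant message of the set. It lies on chromosome 14 at 35401513 to 35404749. Its level was 281.83, 231.31 and 230.73 FPKM in mock and 238.65, 236.95 and 232.74 FPKM in shHMGB2. Mock replicate 1 stood above the other 5 libraries, which lay within 230.73 to 238.65 FPKM. The log2 difference was -0.06 (95% interval -0.26 to 0.13, limma adjusted p = 0.651), and without mock replicate 1 it was 0.03. The ratio of NFKBIA to RELA was 6.32, 4.96 and 5.52 in mock and 5.34, 6.22 and 5.68 in shHMGB2, so it overlapped too.

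NFKBIE, which encodes a slower IkB protein, was the member nearest to the threshold. It lies on chromosome 6 at 44258166 to 44265551. Mock libraries had 5.15, 4.49 and 5.23 FPKM and shHMGB2 libraries 3.87, 3.77 and 3.71 FPKM. The groups did not overlap, with means of 4.96 ± 0.406 and 3.78 ± 0.0808 FPKM (SD, n = 3 each). The log2 difference was -0.31 (SE 0.08, 95% interval -0.50 to -0.13, limma adjusted p = 0.0577). In the authors' deposited table NFKBIE had a log2 fold change of -0.46 with an adjusted p of 0.0379, from normalized group values of 247 and 180, the lowest of the 10 genes. Its call turned on the processing: it passed under 7 of 18 alternatives and under none that left out a library (limma adjusted p 0.0850 to 0.166).

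The ratio of NFKBIA to NFKBIE, the most over the least abundant of the 10 genes, was 54.7, 51.5 and 44.1 in mock and 61.7, 62.9 and 62.7 in shHMGB2, without overlap. NFKBIE by itself did not overlap between the groups, so this ratio is not a separate result. By the closest pattern over the 6 libraries, NFKBIE was most like NFKBIB (Pearson's r = 0.993), another IkB gene, MYADM (r = 0.990), a myeloid-associated membrane protein, and BHLHE40 (r = 0.989), a transcriptional repressor. These are given as a description. The 3 genes were lower in shHMGB2, by 0.32, 0.48 and 0.43 on the log2 scale (limma adjusted p = 0.0422, 0.0119 and 0.00961). They were picked for following NFKBIE over the same libraries, where it was lower in shHMGB2. Their fall is thus part of the choice and gives no support of its own. Leaving out mock replicate 1 or 3 or any shHMGB2 library ended the call of NFKBIB, leaving out any shHMGB2 library that of MYADM, and leaving out shHMGB2 replicate 3 that of BHLHE40 (adjusted p by limma, 0.0506 to 0.139).

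NFKBIZ encodes an atypical nuclear IkB protein that acts as a cofactor on a subset of inflammatory genes, and lies on chromosome 3 at 101827990 to 101861022. It had 11.82, 12.69 and 13.62 FPKM in mock and 11.08, 13.36 and 12.28 FPKM in shHMGB2. The groups overlapped almost wholly, with a log2 difference of -0.05 (95% interval -0.25 to 0.15, limma adjusted p = 0.720).

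TNFAIP3 encodes a ubiquitin-editing enzyme that shuts off signalling upstream of the IkB kinases. It lies on chromosome 6 at 137866349 to 137883312. Mock libraries had 46.94, 43.45 and 50.45 FPKM and shHMGB2 libraries 53.32, 56.66 and 52.87 FPKM. All shHMGB2 libraries were above all mock libraries, with means of 46.9 ± 3.50 and 54.3 ± 2.07 FPKM (SD, n = 3 each). The log2 difference of 0.21 did not pass (95% interval 0.05 to 0.37, limma adjusted p = 0.109), and in the authors' deposited table the log2 fold change was 0.15 with an adjusted p of 0.164.

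BIRC3 encodes a ubiquitin ligase of the TNF receptor complex that also restrains the alternative pathway. It lies on chromosome 11 at 102317484 to 102339403. Mock libraries had 7.17, 8.02 and 9.23 FPKM and shHMGB2 libraries 9.43, 11.78 and 10.17 FPKM. The groups did not overlap, by a gap of 9.23 to 9.43 FPKM, and the means were 8.14 ± 1.04 and 10.5 ± 1.202 FPKM (SD, n = 3 each). The log2 difference was 0.33 (95% interval 0.07 to 0.58, limma adjusted p = 0.110). In the authors' deposited table BIRC3 was higher, with a log2 fold change of 0.35 and an adjusted p of 0.0338. Its paralog BIRC2, picked for comparison outside the naming rule, had 28.8 ± 1.68 and 30.5 ± 3.77 FPKM (± SD over 3 libraries; adjusted p by limma 0.629), and the ratio of BIRC3 to BIRC2 was 0.266, 0.275 and 0.305 in mock and 0.358, 0.350 and 0.322 in shHMGB2.

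The groups did not overlap for 4 of the 10 genes, TNFAIP3 and BIRC3 upward and NFKB2 and NFKBIE downward, and 35.6% of all genes tested did not overlap either. By the authors' deposited table, 2 of the 10 genes were under an adjusted p of 0.05, BIRC3 higher and NFKBIE lower, against 15.4% of the genes with an adjusted p there. Both shares lie near their background. The plot of differences with intervals shows how far each gene could have moved.

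**Figure D3:**
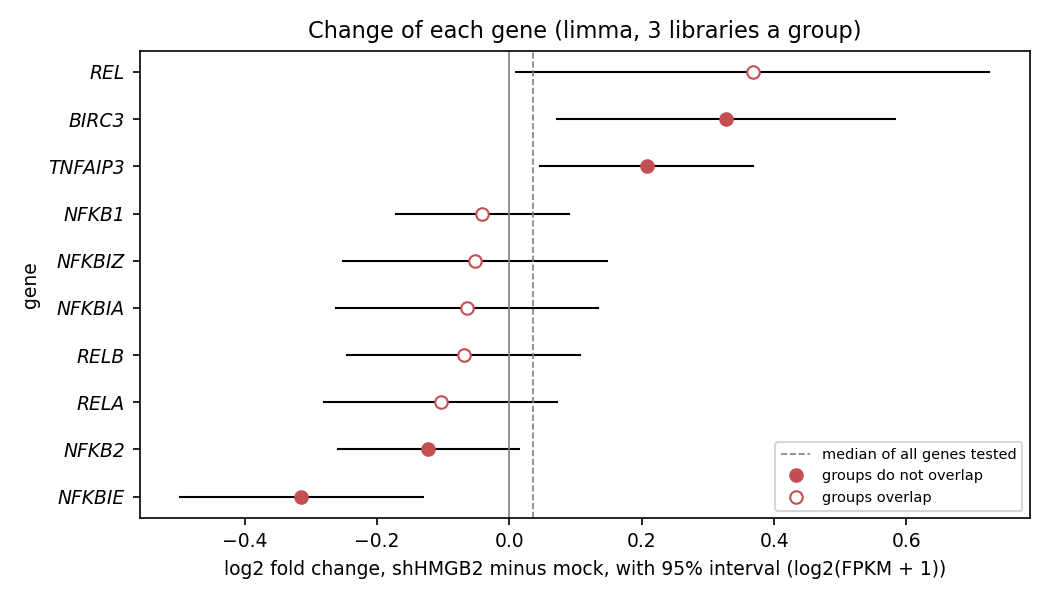
Log2 difference, shHMGB2 minus mock, of each gene with its 95% interval from limma on log2(FPKM + 1), 3 libraries a group. Filled points are genes whose groups do not overlap, and the dashed line is the median of all genes tested, 0.04. The intervals of REL, BIRC3 and TNFAIP3 lie above 0 and that of NFKBIE below 0, before adjustment over all genes.

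The order of the mean levels was the same in both groups. In mock the means ran from NFKBIA at 248 FPKM through TNFAIP3, RELA, NFKB2, NFKB1, RELB, NFKBIZ, REL and BIRC3 to NFKBIE at 4.96 FPKM. In shHMGB2 they kept that order, from 236 to 3.78 FPKM. Neighbours whose ranges overlapped in mock were TNFAIP3 with RELA, RELB with NFKBIZ, and REL with BIRC3. In shHMGB2 they were NFKBIZ with REL and REL with BIRC3, and TNFAIP3 lay clear of RELA.

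Mock replicate 1 stood apart by transcript length, and some of these genes were at their lowest or highest in that library. For the quartile of genes with the longest transcripts (median 6986 bases) its median deviation from the mean of the 6 libraries was -0.18 on the log2 scale, and for the shortest quartile (median 1711 bases) it was 0.11. In the longest quartile mock replicates 2 and 3 stood at -0.03 and 0.02 and the shHMGB2 libraries at 0.08, 0.07 and 0.04. REL, whose longest transcript has 11255 bases, deviated by -0.54 in mock replicate 1. BIRC3, with 5197 bases, deviated by -0.32 there and NFKBIA, with 1558 bases, by 0.22. TNFAIP3, with 4735 bases, deviated by -0.10 there but by -0.21 in mock replicate 2. NFKB1, with 4085 bases, deviated by -0.03 there. NFKBIE, with 2581 bases, deviated by 0.21 there and by 0.22 in mock replicate 3. Whether transcript length caused these deviations was not tested. With the length trend of each library removed, an alternative chosen after seeing the data, the differences were 0.20 for REL, 0.24 for BIRC3, 0.14 for TNFAIP3 and -0.00 for NFKBIA. NFKBIE then stood at -0.31 and passed (limma adjusted p = 0.0270).

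**Figure D4:**
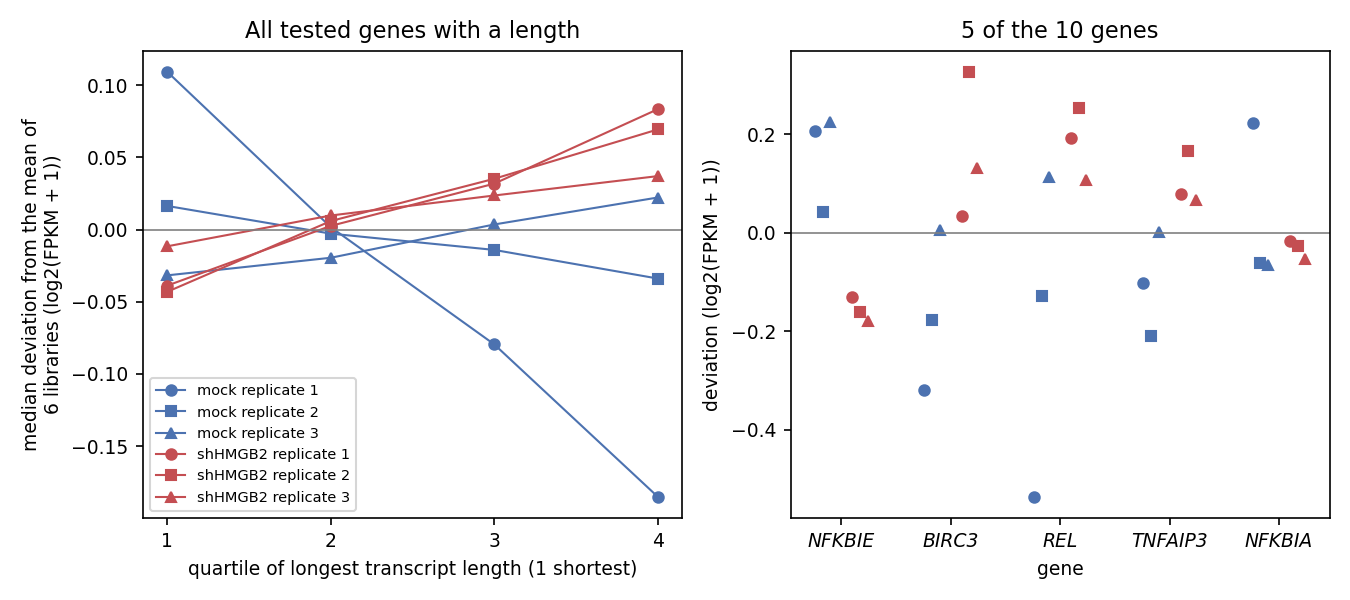
Left, median deviation of each library from the mean of the 6 libraries (log2(FPKM + 1)) for tested genes in quartiles of longest transcript length; right, the same deviation for 5 of the genes, mock in blue and shHMGB2 in red. Mock replicate 1 (blue circle) goes from 0.11 to -0.18 on the left, and on the right it is lowest for REL and BIRC3 and highest for NFKBIA.

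Around this core the pathway's other inhibitors held several lower genes. All 16 read were tested: 5 fell, 0 rose and 11 stayed under the threshold (median log2 difference -0.03). Of the 16 differences 8 were positive and 8 negative. Across all genes tested 6.75% passed, which is the background for this list and those below. PDLIM2, which promotes RELA degradation in the nucleus, fell from 5.55 ± 0.455 to 3.71 ± 0.217 FPKM, BCL3, a nuclear IkB protein, from 21.2 ± 1.61 to 15.02 ± 0.774 FPKM, and ITCH, a ubiquitin ligase that works with TNFAIP3, from 19.4 ± 1.93 to 14.6 ± 0.182 FPKM (± SD over 3 libraries; adjusted p by limma 0.0188, 0.0141 and 0.0333). The other two, named after their values were seen, were NFKBIB and ZC3H12A, a ribonuclease of inflammatory messages (limma adjusted p = 0.0450). CYLD, a deubiquitinase, and NLRC5, both named after their values were seen, were above mock without passing. CYLD had 6.39 ± 0.837 and 8.28 ± 0.468 FPKM and NLRC5 6.10 ± 0.633 and 8.33 ± 1.08 FPKM (± SD over 3 libraries; adjusted p by limma 0.0832 and 0.0721). In the authors' deposited table both were higher, with log2 fold changes of 0.36 and 0.43 and adjusted p of 0.0157 and 0.00194. The 5 lower genes were also under 0.05 there. In the limma fit, leaving out mock replicate 1, 2 or 3 gave 3, 3 or 2 lower genes, and leaving out shHMGB2 replicate 1, 2 or 3 gave 1, 0 or 0. PDLIM2 lost its call without any shHMGB2 library, BCL3 without shHMGB2 replicate 2 or 3, ITCH without mock replicate 2 or 3 or any shHMGB2 library, and ZC3H12A without any of the 6 (adjusted p by limma, 0.0593 to 0.131). The count was 1 lower without the filter on low values, 3 lower without the variance trend, and 4 higher and 7 lower with library weights.

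Kinases and adaptors between the receptors and IkB moved in both directions. All 29 were tested: 2 rose, 3 fell and 24 stayed under the threshold (median log2 difference 0.04). BTRC, the substrate-recognition subunit of the ligase that marks phosphorylated IkB for degradation, had 4.05, 4.32 and 4.45 FPKM in mock and 1.84, 1.90 and 1.65 FPKM in shHMGB2. Its mean FPKM was 2.38-fold lower. On log2(FPKM + 1), a scale that understates differences of low genes, the difference was -0.92 (SE 0.08, limma adjusted p = 0.00154). In the authors' deposited table the log2 fold change was -1.31. BTRC passed under each of the 18 alternatives. IKBKE, an IkB kinase relative of the interferon response, rose from 6.68 ± 0.577 to 10.1 ± 0.534 FPKM, and MYD88, the adaptor of Toll-like receptors, from 15.8 ± 0.494 to 21.4 ± 1.38 FPKM (± SD over 3 libraries; adjusted p by limma 0.0112 and 0.0146).

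BCL10 and IRAK2, adaptors named after their values were seen, fell by 0.39 and 0.33 on the log2 scale (limma adjusted p = 0.0192 and 0.0387). The IkB kinase subunits themselves, also named after their values were seen, did not pass: CHUK had a log2 difference of -0.05, IKBKB of 0.16 and IKBKG of -0.13 (limma adjusted p = 0.779, 0.189 and 0.319). IKBKE lost its call when shHMGB2 replicate 1 or 3 was left out, MYD88 when mock replicate 2 or shHMGB2 replicate 1 or 3 was, BCL10 when mock replicate 2 or any shHMGB2 library was, and IRAK2 when any of the 6 was (adjusted p by limma, 0.0508 to 0.141). Leaving out mock replicate 2 gave 1 higher gene and leaving out shHMGB2 replicate 1 or 3 gave 0, while 1 lower gene was left when mock replicate 2 or any shHMGB2 library was dropped. The count was 5 higher and 7 lower with library weights, and 5 lower with the length trend removed.

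Few ligands of the pathway were expressed. TNF, named after its values were seen, was at 0.05 to 0.09 FPKM, and 7 of 12 ligands were under a mean of 1 FPKM and not tested. Among the 5 tested, 1 rose, 2 fell and 2 stayed under the threshold. TNFSF10, a death ligand induced by interferon, rose from 9.41 ± 0.425 to 17.3 ± 0.186 FPKM, IL1B, an inflammatory cytokine, fell from 4.48 ± 0.735 to 1.73 ± 0.0493 FPKM, and IL36G, an epithelial cytokine, from 12.1 ± 0.420 to 8.17 ± 0.614 FPKM (± SD over 3 libraries; adjusted p by limma 0.000807, 0.00325 and 0.00819). These 3 calls held without any single library.

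Of 15 receptors listed, 14 were in the table and 9 were tested: 3 rose, 1 fell and 5 stayed under the threshold. The receptor that fell, TNFRSF12A, which feeds the alternative pathway, had 223.04, 216.63 and 201.78 FPKM in mock and 116.54, 102.88 and 109.19 FPKM in shHMGB2. It was 1.95-fold lower (log2 difference -0.96, SE 0.07, limma adjusted p = 0.000807) and passed under each alternative. TLR3, a sensor of double-stranded RNA, rose from 1.24 ± 0.0929 to 2.197 ± 0.0551 FPKM, and NOD1, a sensor of bacterial peptidoglycan, from 2.46 ± 0.0794 to 3.46 ± 0.214 FPKM (± SD over 3 libraries; adjusted p by limma 0.0152 and 0.0370). IL1RAP, the shared receptor chain of the IL1 family, named after its values were seen, was the third that rose (limma adjusted p = 0.0439). TNFRSF1A, the main TNF receptor, also named after its values were seen, had a log2 difference of -0.06 (limma adjusted p = 0.596). TLR3 lost its call when mock replicate 2 or any shHMGB2 library was left out, NOD1 when any of the 6 was, and IL1RAP when any but mock replicate 3 was (adjusted p by limma, 0.0507 to 0.158). Higher receptors then numbered 1 when mock replicate 1 was dropped and 0 when mock replicate 2 or any shHMGB2 library was. Only 1 receptor was higher without the filter on low values and 1 under upper-quartile scaling, settings that ended the calls of NOD1 and IL1RAP (adjusted p by limma, 0.0581 to 0.103), and 2 were lower with library weights.

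Genes known as NF-kB targets split. Of 36 read, 28 were tested: 2 rose, 8 fell and 18 stayed under the threshold (median log2 difference -0.04). CXCL8, a neutrophil chemokine, had 276.05, 280.18 and 308.14 FPKM in mock and 126.67, 161.96 and 163.69 FPKM in shHMGB2, a log2 difference of -0.94 (SE 0.11, limma adjusted p = 0.00393). LIF, a cytokine, fell from 9.18 ± 0.557 to 4.35 ± 0.108 FPKM, and SAA1, an acute phase protein, rose from 10.8 ± 2.00 to 18.7 ± 2.65 FPKM (± SD over 3 libraries; adjusted p by limma 0.000807 and 0.0266). SAA1 and the CXCL1, CXCL2 and CXCL3 genes have close copies among which counting could split reads, and are uncertain. SOD2, a mitochondrial antioxidant enzyme among the most abundant targets and named after its values were seen, had 217 ± 9.91 and 205 ± 5.27 FPKM (± SD over 3 libraries, adjusted p by limma 0.392). In the authors' deposited table SOD2 was lower, with a log2 fold change of -0.19 and an adjusted p of 0.0365.

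Lower targets numbered 4 when replicate 2 of either group was left out and 5 when shHMGB2 replicate 1 or 3 was. Higher targets numbered 1 when any mock library or shHMGB2 replicate 2 was left out and 0 when shHMGB2 replicate 1 or 3 was. The call of SAA1 was lost when replicate 1 or 3 of either group was dropped (adjusted p by limma, 0.0530 to 0.0996). Higher targets numbered 0 without the filter on low values and 6 with library weights. Genes that respond to handling of cells were mostly lower in shHMGB2, with a median log2 difference of -0.20 over the 10 tested, 8 of them negative. The 2 positive differences were those of FOS (0.34) and FOSB (0.26), named after their values were seen. At an unadjusted limma p under 0.05 stood 7 of the 10, the higher FOS among them, and 3745 of 13409 genes tested. The summed level of the handling genes was 469.1 to 503.5 FPKM in mock and 394.2 to 424.8 FPKM in shHMGB2, without overlap. In this list 1 gene, JUNB, fell, from 119 ± 10.1 to 86.9 ± 3.75 FPKM (± SD over 3 libraries; adjusted p by limma 0.0166), 0 rose and 9 stayed under the threshold. Its call was lost when shHMGB2 replicate 2 or 3 was left out (adjusted p by limma 0.0708 and 0.0711). Lower handling genes numbered 2 without mock replicate 2 or with numbered copies summed, 3 with the length trend removed, 4 with library weights (and 2 higher), and 0 without the filter on low values. The part of handling in the results for targets and the other lists was not tested.

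**Figure D5:**
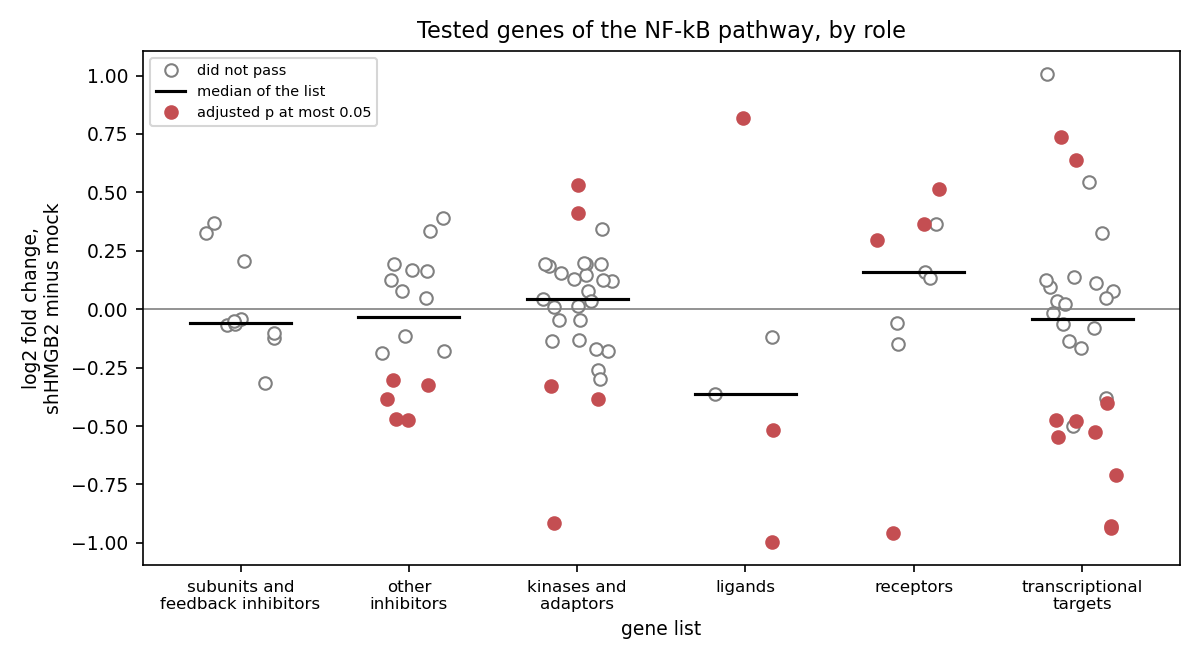
Log2 difference, shHMGB2 minus mock, of each tested gene of the NF-kB pathway by role; red points passed an adjusted p of 0.05 in limma, open points did not, and the black line is the list's median. Red points number 0 of 10 among the subunits and feedback inhibitors. In the other lists they number 5 of 16, 5 of 29, 3 of 5, 4 of 9 and 10 of 28 from left to right. Across all genes tested 6.75% passed, a share at which few or none of 10 genes would be called.

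Genes with and without the motif in the promoter had nearly the same median difference. Of the tested genes with a promoter window, 1655 held a kappaB site and had a median log2 difference of 0.03, and 8003 without a site had 0.04. Of those with a site 7.98% passed, 65 higher and 67 lower, and of those without 6.77%. Sites stood in the windows of 16 of 28 targets with a window, and of 6 of 14 other inhibitors, 3 of 25 kinases and adaptors, 3 of 9 ligands and 0 of 12 receptors. Among targets with a site 5 fell, namely CXCL1, CXCL2, CCL20, GADD45B and SDC4, and 1 rose, CXCL10, all 6 named after their values were seen. Among targets with a window but 0 matches to this strict consensus CXCL8 and BCL2L1 fell, by log2 differences of -0.94 and -0.40. Looser kappaB sequences in their windows were not searched for. LIF and SAA1 had no window. BCL2L1, also named after its values were seen, lost its call without mock replicate 2 or shHMGB2 replicate 2 or 3 (adjusted p by limma, 0.0550 to 0.0675). GADD45B and CXCL10 lost their calls when mock replicate 2 or any shHMGB2 library was left out, and GADD45B also when mock replicate 1 was (adjusted p by limma, 0.0563 to 0.118). CXCL2 lost its call when mock replicate 2 or shHMGB2 replicate 1 or 2 was left out, and CCL20 when any but mock replicate 3 was (adjusted p by limma, 0.0510 to 0.109), while CXCL1 and SDC4 kept theirs without any 1 library.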

How the data were processed

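RNA was extracted with Trizol and made into libraries with a dual-mode mRNA kit, per the labels' protocols. The submitters' processing notes list Bowtie2 2.2.5, RSEM 1.2.12 and hg38, without role or order. The authors deposited FPKM with 2 decimals for each of the 6 libraries, per the file headers. The authors also deposited a normalized signal for each group, a log2 fold change, and a p-value with its adjusted p-value, from a test that no label or header names. Group values of genes seen in 1 library fell on whole multiples of 1 step for 100% of such genes (tolerance 0.01). These steps gave relative depths as size factors from 0.699 (shHMGB2 replicate 3) to 1.31 (shHMGB2 replicate 1). Reads per library were not recovered, so no count model was used.

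The 13409 genes averaging 1 FPKM or more entered a linear model on log2(FPKM + 1) in limma 3.58.1 under R 4.3.3, with group as the term and trended empirical Bayes moderation; p-values were adjusted by Benjamini-Hochberg over all genes tested. Tests were 2-sided at an adjusted p of 0.05, and differences on this scale understate those of low genes. Intervals are 95% from the moderated fit. On simulated data for shHMGB2 against mock (13191 genes), 94 of 100 genes shifted by 1 on the log2 scale and 71 of 100 shifted by 0.5 were called, beside 10 false calls. Shifted genes were drawn from those with a mock mean above 3 on the log2(FPKM + 1) scale, with independent normal noise. NFKBIE, at 4.96 FPKM in mock, lay below that level. The differences of all members were smaller than either shift, so these shares do not give the sensitivity for them. The members and lists were chosen with earlier results of these data known. Named genes are all members, HMGB2, the 3 largest changes past the threshold in each other list (the smallest p where none passed), and the 3 genes averaging 5 FPKM or more that correlated most with the member of smallest p. Genes outside this rule are marked as picked with their values known. Same-numbered libraries did not deviate together (r from -0.10 to -0.01), so numbers were not treated as pairs. Transcript lengths are the longest per gene in GENCODE 29 and covered 85.2% of tested genes. In GENCODE 29 exons of REL, RELA and TNFAIP3 overlap another gene, on the opposite strand for RELA and TNFAIP3; no label or header gives the strand setting of the counting. Alternatives were other pseudocounts, filters, scalings, thresholds, variance models, a replicate block, numbered copies summed and each library left out, with the length trend added after seeing the data.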

Additional observations from a re-analysis of the deposited data

How the results depend on the processing

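The count of 0 called among the 10 genes became 1 (NFKBIE, lower) under upper-quartile scaling, median-of-ratios scaling, quantile normalization, no mean-variance trend, numbered copies summed, the length trend removed, and a threshold of 0.1. It became 6 with library weights (3 higher, 3 lower), under which 4194 of all genes passed. It was 0 under the other pseudocounts and filters, at a threshold of 0.01, and without any 1 library (range 0 to 0). The count of genes called between shHMGB2 and mock, 905, was 412 without a filter on low values, 1699 with the length trend removed, 242 at a threshold of 0.01 and 2034 at 0.1. It ran from 290 to 873 with 1 library left out, falling most without mock replicate 2 (327) and shHMGB2 replicates 1, 2 and 3 (320, 290 and 311). The split was 442 higher and 463 lower, 312 and 527 under upper-quartile scaling, and 349 and 571 under median-of-ratios scaling. With the replicate block, which the pairing check did not call for, 372 genes and 0 of the 10 passed, as did 1 other inhibitor (lower), 2 kinases and adaptors higher and 2 lower, 0 receptors higher, and 1 target higher and 5 lower. The sign of the log2 difference turned for NFKBIA under quantile normalization (0.00063), library weights (0.018) and without mock replicate 1, and for NFKBIZ without shHMGB2 replicate 1. With 1 library left out, NFKBIA ran from -0.112 (without mock replicate 3) to 0.031 and NFKBIZ from -0.112 (without shHMGB2 replicate 2) to 0.013. The cause was not tested. Reads behind each value are not known, and 3 libraries a group limit all intervals.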
